A study of Mus musculus with 11 samples.

Results

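The mevalonate to squalene enzymes are the 9 genes Acat2, Hmgcs1, Mvk, Pmvk, Mvd, Idi1, Fdps, Fdft1 and Sqle, taken by name for their place in cholesterol synthesis, and all 9 were found among the 36788 genes of the table. Their transcripts were followed in the livers of female mice older than 12 weeks, labelled wild-type C57BL/6; the methods of the study give a mixed 129 and C57BL/6J background for its mice. All animals, controls included, had been ovariectomized (OVX) and fed a high-fat diet. Then 5 mice received follicle-stimulating hormone (FSH), given as daily injections, and 6 mice received saline. The comparison asks which liver transcripts differ when FSH is given to animals that have no ovaries. Each library came from whole liver, with 1 library per numbered sample. The p-values set a difference between groups against the spread between these samples.

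Liver makes cholesterol from acetyl-CoA. Acetyl units are joined to HMG-CoA, from which mevalonate is made; mevalonate is then phosphorylated and decarboxylated to isopentenyl diphosphate, the isoprene unit from which farnesyl diphosphate and squalene are assembled, and squalene epoxidation opens the way to the sterol ring. The transcription factor SREBP-2 (Srebf2) is the best known activator of these genes. It is held in the endoplasmic reticulum by SCAP and INSIG proteins while sterols are plentiful, and is released by proteolysis in the Golgi when they are scarce.

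The RefSeq promoter windows (GRCm38.p6, from 250 bases before to 50 bases after the start of transcription) were searched for DNA letters of the kind at which SREBP-2 and its partner NF-Y are known to bind such genes. Windows were matched by symbol for 6 of the 9 genes, and no window was used for Fdps, Fdft1 and Sqle. The 4 windows printed here were those with more than a single CCAAT. They run 5′ to 3′ on the gene's strand, and capitals mark TCACNCCAC, here called SRE-like, and CCAAT, the NF-Y box, each searched on both strands. Hmgcs1 lies at chr13:119690101-119690400 on the plus strand, Mvk at chr5:114444019-114444318 on the plus strand, Mvd at chr8:122443373-122443672 on the minus strand and Idi1 at chr13:8885356-8885655 on the plus strand.
Hmgcs1: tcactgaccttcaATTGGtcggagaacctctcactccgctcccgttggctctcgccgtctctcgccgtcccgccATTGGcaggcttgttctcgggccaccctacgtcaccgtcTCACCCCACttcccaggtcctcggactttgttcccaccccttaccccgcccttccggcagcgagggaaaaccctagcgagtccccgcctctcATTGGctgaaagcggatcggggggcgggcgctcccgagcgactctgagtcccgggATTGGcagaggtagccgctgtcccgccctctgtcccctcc
Mvk: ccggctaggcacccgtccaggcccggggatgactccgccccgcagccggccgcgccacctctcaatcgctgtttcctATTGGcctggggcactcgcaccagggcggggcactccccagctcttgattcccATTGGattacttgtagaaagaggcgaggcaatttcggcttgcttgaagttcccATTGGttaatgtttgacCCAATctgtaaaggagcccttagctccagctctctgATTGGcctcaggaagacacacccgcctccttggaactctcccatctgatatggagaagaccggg
Mvd: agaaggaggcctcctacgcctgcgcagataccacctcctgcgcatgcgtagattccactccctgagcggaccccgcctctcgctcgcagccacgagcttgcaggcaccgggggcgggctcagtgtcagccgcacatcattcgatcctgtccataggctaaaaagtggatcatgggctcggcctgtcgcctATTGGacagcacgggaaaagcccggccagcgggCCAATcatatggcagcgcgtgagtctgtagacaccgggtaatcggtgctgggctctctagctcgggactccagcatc
Idi1: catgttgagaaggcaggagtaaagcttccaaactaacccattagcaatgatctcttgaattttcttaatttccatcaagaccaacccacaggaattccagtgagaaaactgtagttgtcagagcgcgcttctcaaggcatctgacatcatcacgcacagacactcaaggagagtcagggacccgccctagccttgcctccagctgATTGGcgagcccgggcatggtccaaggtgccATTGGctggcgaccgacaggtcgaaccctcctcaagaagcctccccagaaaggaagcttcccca
TCACNCCAC was found in the Hmgcs1 window, where it begins 137 bases before the start, and in none of the other member windows. It occurs in 1.24% of all 32851 promoter windows of this length. CCAAT was found in 5 of 7 member windows (Pmvk has 2 windows), against 37.4% of all windows, with 4 copies in Hmgcs1 and 5 in Mvk. GGGCGG, the GC box, was found in 5 of 7 member windows and in 35.7% of all windows, while CACGTG, the E-box, was found in 0 of 7 and in 7.15%. These matches describe the letters of the windows and say nothing of binding in these livers.

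Libraries held between 10801891 and 19909327 reads assigned to genes, and values are counts per 1000000 of these reads (CPM). On the first principal component, which carried 31.0% of the variance, FSH livers lay between 7.93 and 28.8 and saline livers between -28.7 and -13.0. FSH liver 6 was the FSH liver nearest to the saline group and saline liver 4 the saline liver farthest from the FSH group. Hepatocyte markers (Alb, Ttr, Apoa1, Apob and Fgb) summed to between 92053 and 112273 CPM in FSH livers and to between 85758 and 115721 CPM in saline livers, and of these Fgb was called lower with FSH. Among the markers of 8 other cell types, 1 cholangiocyte gene (Krt7) was called, as higher with FSH, and the adipocyte gene Lep was at 0 in all libraries. Summed macrophage markers ranged from 90.3 to 249 CPM with FSH and from 148 to 295 CPM with saline. In bulk liver, a change in the number of cells of a type cannot be told apart from a change in RNA per cell.

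Transcripts of the enzymes followed here, which are not every step from acetyl-CoA to squalene epoxide, were higher on average with FSH. Mean levels were higher in FSH livers for 9 of 9 enzymes, and 8 passed an adjusted p under 0.05 in limma over the 12733 genes tested, where 6.19% of all genes were called higher. At an additional log2 fold change over 1, 6 of the 9 were called, against 0.887% of all genes. The median log2 fold change was 1.30 over the 9 genes and 0.02 over all genes tested. The highest estimates belonged to Mvd, Fdps and Idi1, in the middle of the route, and the lowest to Mvk. Groups did not overlap for 3 of the 9 genes (Acat2, Pmvk and Fdps), against 3.95% of all genes that lay higher without overlap. The Acat2 value is uncertain, as described below.

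**Figure D1:**
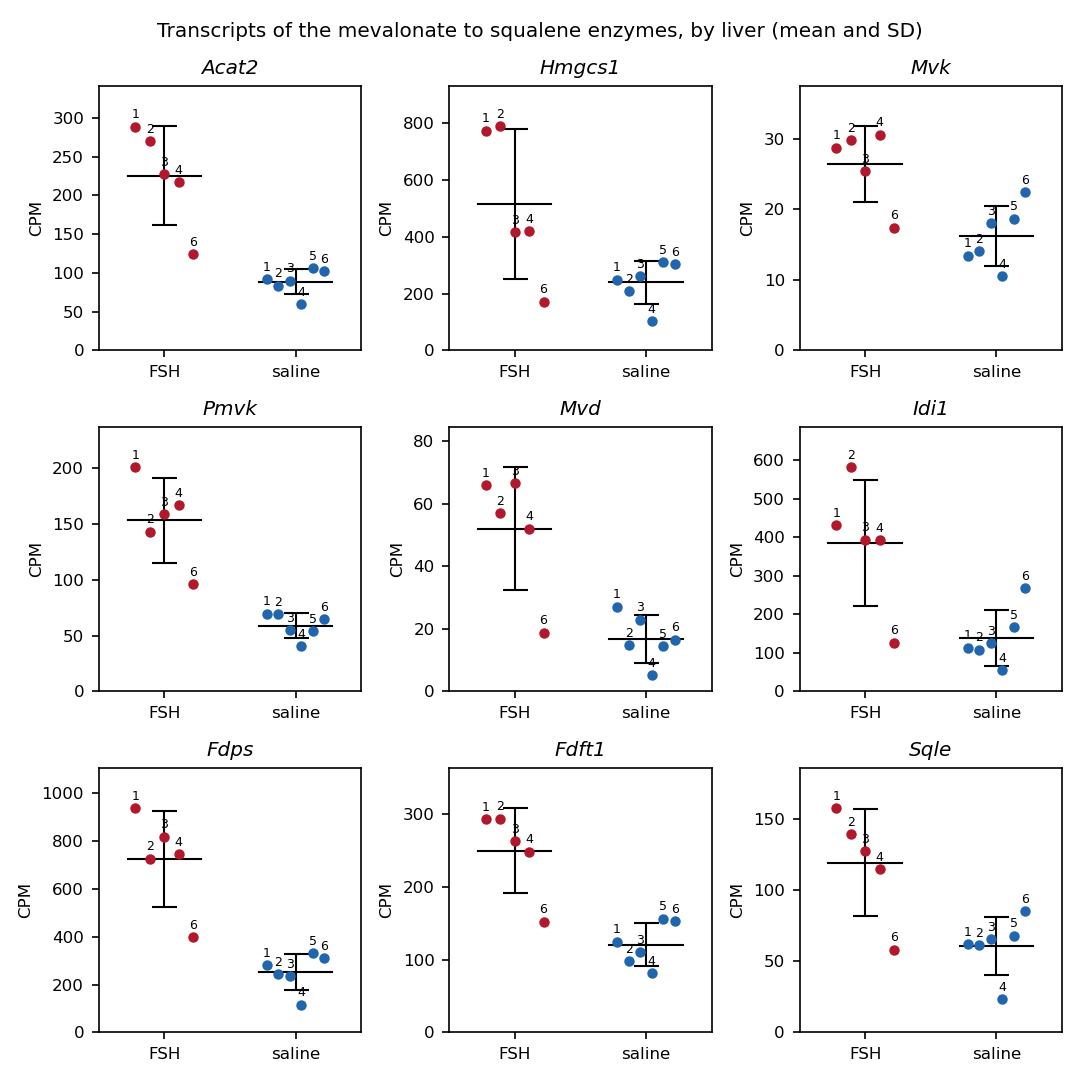
Level of each of the 9 transcripts (vertical axis, CPM, from 0) in every liver; numbered points are livers, the horizontal line is the group mean and the bars are ± 1 SD (FSH n = 5, saline n = 6). FSH livers 1 to 4 lie above every saline liver in all 9 panels, while FSH liver 6 is the lowest FSH liver in each.

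The route opens with Acat2, cytosolic acetoacetyl-CoA thiolase, which joins a pair of acetyl-CoA molecules (ENSMUSG00000023832, chromosome 17, 12942890 to 12960747, minus strand, GRCm38). Acat2 stood at 289, 270, 227, 217 and 124 CPM in FSH livers 1, 2, 3, 4 and 6. In saline livers Acat2 ranged from 59.8 to 106 CPM with a median of 90.8 CPM. Every FSH liver was above every saline liver. The means were 225 ± 63.8 CPM (SD, n = 5) and 88.8 ± 16.4 CPM (SD, n = 6), a log2 fold change of 1.30 (SE 0.19, adjusted p = 0.000708, limma). All fold changes here are differences of mean log2(CPM + 0.5), FSH minus saline.

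The Acat2 value is uncertain because of a near-identical neighbour on the same chromosome, Acat3. The longest annotated transcripts of both genes share 97.7% of 1477 aligned bases, and 28.9% of the 100-base stretches of Acat2 transcripts also occur in Acat3. Acat3 moved the other way, at 242 ± 17.5 CPM (SD, n = 5) in FSH livers against 356 ± 32.2 CPM (SD, n = 6) in saline livers, a log2 fold change of -0.55 (adjusted p = 0.000944, limma) with no overlap between groups. The sum of both genes was 468 ± 50.9 CPM (SD, n = 5) in FSH livers and 445 ± 38.2 CPM (SD, n = 6) in saline livers, a difference within the spread between livers (exact permutation test, two-sided, p = 0.435). Within a liver, the log2 ratio of Acat2 to Acat3 lay between -1.05 and 0.33 with FSH and between -2.63 and -1.76 with saline. How reads that match both Acat2 and Acat3 were shared out was not tested. Of the Acat2 stretches, 7.21% also occur on the opposite strand in Tcp1, all of them among those shared with Acat3. The kit does not mark strand, and the part of Tcp1 reads was not tested.

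**Figure D2:**
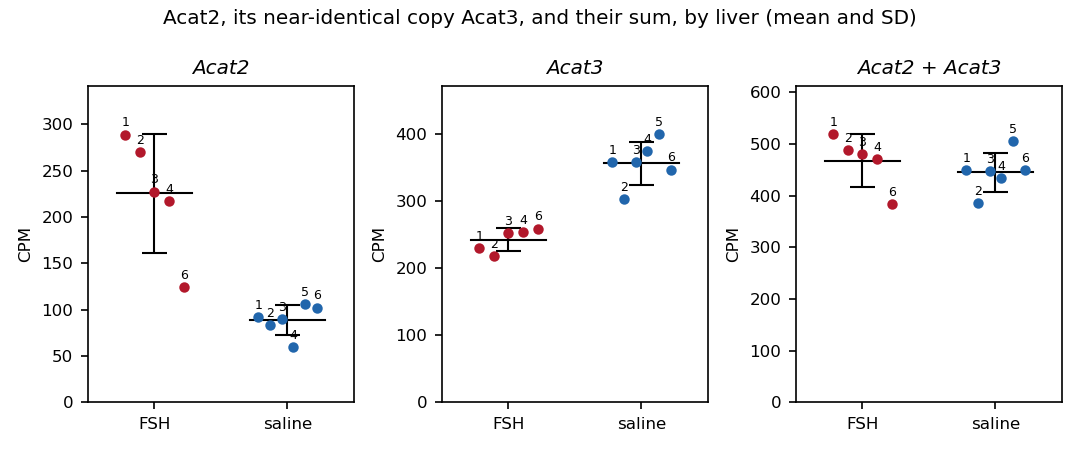
Acat2, Acat3 and their sum in every liver (vertical axes, CPM, from 0); numbered points are livers, lines are group means and bars are ± 1 SD (FSH n = 5, saline n = 6). Acat2 is higher and Acat3 lower in every FSH liver, and the sums of the 2 groups overlap.

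Hmgcs1, the cytosolic HMG-CoA synthase that adds the next acetyl unit (ENSMUSG00000093930, chromosome 13, 119690379 to 119708260, plus strand), is the only one of the 6 enzymes with a promoter window in which the SRE-like letters were found. Its level was 774, 789, 417, 419 and 172 CPM in FSH livers 1, 2, 3, 4 and 6. In saline livers Hmgcs1 ranged from 104 to 310 CPM with a median of 256 CPM. FSH liver 6 lay inside the saline range and the other FSH livers above it, and livers 1 and 2 were well above livers 3 and 4. The log2 fold change was 0.99 (SE 0.36, 95% interval 0.23 to 1.75), and Hmgcs1 was the enzyme of the 9 that did not pass in limma (adjusted p = 0.0925). Without FSH liver 6 the estimate was 1.34 and the adjusted p 0.00852; over all alternatives the adjusted p ran from 0.00452 to 0.232.

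Mevalonate itself is handled by 3 enzymes in turn. Mvk, mevalonate kinase, adds the first phosphate (ENSMUSG00000041939, chromosome 5, 114444269 to 114460591, plus strand). Mvk was at 28.8, 29.8, 25.4, 30.6 and 17.4 CPM in FSH livers 1, 2, 3, 4 and 6. In saline livers Mvk ranged from 10.6 to 22.5 CPM with a median of 16.1 CPM. The 4 higher FSH livers were close to each other, and liver 6 fell among the saline values. The log2 fold change of Mvk, 0.70 (SE 0.18, adjusted p = 0.0251, limma), was the lowest of the 9.

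Pmvk, phosphomevalonate kinase, adds the second phosphate (ENSMUSG00000027952, chromosome 3, 89454541 to 89469013, plus strand). Pmvk was at 201, 143, 159, 167 and 96.1 CPM in FSH livers 1, 2, 3, 4 and 6. In saline livers Pmvk ranged from 40.8 to 69.5 CPM with a median of 59.9 CPM. All FSH livers, liver 6 included, were above all saline livers. Pmvk had the lowest adjusted p of the 9 enzymes, with a log2 fold change of 1.35 (SE 0.17, adjusted p = 0.000184, limma).

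Mvd, the decarboxylase that yields isopentenyl diphosphate (ENSMUSG00000006517, chromosome 8, 122433601 to 122443422, minus strand), had the largest estimate. Its level was 66.0, 57.0, 66.5, 52.1 and 18.8 CPM in FSH livers 1, 2, 3, 4 and 6. In saline livers Mvd ranged from 5.17 to 27.1 CPM with a median of 15.6 CPM. The 4 higher FSH livers formed a tight group well above the saline range, and liver 6 was inside that range. Between the groups Mvd differed by a log2 fold change of 1.63 (SE 0.37, adjusted p = 0.0122, limma). Its first place turned on single livers. Without saline liver 6 the estimate was 1.657 for Mvd and 1.684 for Idi1. Without saline liver 5 it was 1.618 for Mvd and 1.626 for Fdps.

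From isopentenyl diphosphate, Idi1 makes its isomer, dimethylallyl diphosphate (ENSMUSG00000058258, chromosome 13, 8885501 to 8892451, plus strand). Idi1 was at 432, 581, 393, 393 and 127 CPM in FSH livers 1, 2, 3, 4 and 6. In saline livers Idi1 ranged from 55.2 to 269 CPM with a median of 119 CPM. Saline liver 6 stood above the other saline livers, and FSH liver 6 fell near the saline median. For Idi1 the log2 fold change was 1.46 (SE 0.38, adjusted p = 0.0236, limma). The related gene Idi2 had 1 read in a single FSH liver (0.0566 CPM) and 0 in all others, where 3 reads would be between 0.151 and 0.278 CPM.

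Fdps, farnesyl diphosphate synthase (ENSMUSG00000059743, chromosome 3, 89093588 to 89101959, minus strand), joins the isoprene units at the point from which sterols and prenylated products branch. Fdps was at 938, 726, 820, 745 and 398 CPM in FSH livers 1, 2, 3, 4 and 6. In saline livers Fdps ranged from 117 to 330 CPM with a median of 263 CPM. Here too all FSH livers were above all saline livers. This gave a log2 fold change of 1.53 (SE 0.25, adjusted p = 0.00146, limma). Of the 100-base stretches of Fdps transcripts, 20.5% also occur in the overlapping gene Gm43738 on the same strand, which was not analysed here.

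Squalene is made by Fdft1, squalene synthase (ENSMUSG00000021273, chromosome 14, 63145150 to 63179578, minus strand), the first enzyme committed to sterols. Fdft1 was at 293, 293, 262, 248 and 152 CPM in FSH livers 1, 2, 3, 4 and 6. In saline livers Fdft1 ranged from 81.4 to 156 CPM with a median of 117 CPM. FSH liver 6 was just below the highest saline livers. Fdft1 had a log2 fold change of 1.05 (SE 0.19, adjusted p = 0.0027, limma). On the opposite strand, exons of Ctsb cover 15.98% of the Fdft1 stretches, and since the kit does not mark strand, reads from that stretch cannot be assigned to either gene by strand; Ctsb itself stood at 787 ± 101 CPM (SD, n = 5) in FSH livers and 848 ± 32.6 CPM (SD, n = 6) in saline livers (log2 fold change -0.12, adjusted p = 0.457, limma).

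Sqle, squalene epoxidase (ENSMUSG00000022351, chromosome 15, 59315077 to 59331192, plus strand), closes the segment. Sqle was at 158, 139, 127, 115 and 58.1 CPM in FSH livers 1, 2, 3, 4 and 6. In saline livers Sqle ranged from 23.6 to 85.3 CPM with a median of 63.8 CPM. FSH liver 6 lay below 5 of the 6 saline livers, and the other FSH livers lay above all 6. The log2 fold change was 0.99 (SE 0.29, adjusted p = 0.0442, limma).

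Calls of the 9 enzymes changed when single livers were left out, as did calls over all genes. Acat2, Pmvk, Mvd, Fdps and Fdft1 stayed past the threshold in all 23 alternatives tried, while the number of members called fell from 8 to 5 when FSH liver 1, 2, 3 or 4 was left out and was 9 without liver 6. None of these alternatives changes how reads are shared between Acat2 and Acat3, so the Acat2 value stays uncertain. Over all genes, calls went from 1350 to 803, 1035, 910 and 964 without FSH liver 1, 2, 3 and 4, and to 1659 without liver 6. In the fits without FSH liver 1, 2, 3 or 4, log2 fold changes were 0.64 to 0.71 for Mvk, 1.28 to 1.42 for Idi1 and 0.87 to 0.98 for Sqle. The adjusted p there was 0.0526 to 0.0696 for Mvk, 0.0553 to 0.0659 for Idi1 and 0.0820 to 0.123 for Sqle. Without saline liver 1 the adjusted p was 0.0502 for Mvk and 0.0628 for Sqle, and Sqle also lost its call without saline liver 2 (0.0605), 3 (0.0631) or 5 (0.0546).

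Levels of the 9 enzymes can be compared per length, as CPM per kb of annotated exons. In FSH livers Fdps was highest at 172 ± 47.7 CPM per kb (SD, n = 5), followed by Hmgcs1 at 112, Idi1 at 110, Pmvk at 89.4, Acat2 at 88.6 and Fdft1 at 59.1 CPM per kb. Below them came Mvd at 28.01, Sqle at 21.5 and Mvk at 9.87 ± 2.01 CPM per kb. In saline livers Fdps was again highest at 60.2 ± 18.1 CPM per kb (SD, n = 6) and Mvk again lowest at 6.06 ± 1.61 CPM per kb. Neighbours in the FSH order had overlapping ranges of mean ± SD except Fdft1 and Mvd, and Sqle and Mvk. In the saline order the ranges were apart at a single place, between Fdft1 at 28.5 and Sqle at 10.99 CPM per kb.

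A liver of each group held the lowest place along the route. FSH liver 6 was the lowest FSH liver for 9 of 9 genes, and saline liver 4 was the lowest of all 11 livers for 9 of 9. Summed over the 9 genes, levels were 3178, 3030, 2498, 2386 and 1164 CPM in FSH livers 1, 2, 3, 4 and 6, and 1034, 900, 985, 497, 1224 and 1328 CPM in saline livers 1 to 6. The sum in FSH liver 6 was thus inside the saline range. The median log2 distance from the saline mean was 1.31 to 1.77 in FSH livers 1 to 4, 0.31 in FSH liver 6 and -1.04 in saline liver 4. FSH liver 6 had the fewest reads of its group (11410596), whereas saline liver 4 had 13142285 reads, above the saline median; the part of depth in these values was not tested. Without both livers, a choice made after their values were seen, 9 of 9 enzymes were called and 7 at both thresholds; over all genes, 879 of 12736 were then called higher and 141 at both thresholds, where the full set of livers gave 788 and 113 of 12733.

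**Figure D3:**
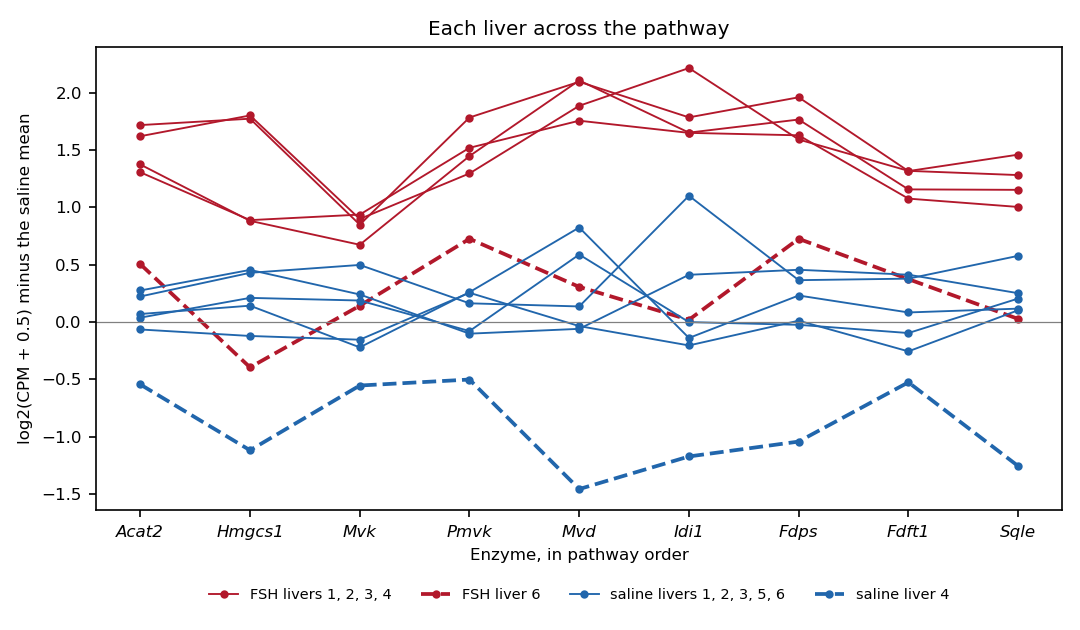
log2(CPM + 0.5) of each liver minus the saline mean (vertical axis) for the 9 enzymes in pathway order (horizontal axis); each line is a liver, red for FSH and blue for saline, and dashed lines are FSH liver 6 and saline liver 4. FSH livers 1 to 4 lie above the rest at every enzyme, within 0.67 to 0.94 at Mvk and split at Hmgcs1, FSH liver 6 runs between -0.39 and 0.73, and saline liver 4 runs lowest throughout.

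Whether neighbours among the 9 differed in their response was asked with the log2 ratio of each transcript to the one listed before it within the same liver, over 8 pairs; the 9 genes are not every step of the route, so neighbours in the list need not be consecutive enzymes. Fdft1 fell relative to Fdps: the mean log2 ratio was -1.52 ± 0.16 (SD, n = 5) in FSH livers and -1.03 ± 0.27 (SD, n = 6) in saline livers, a difference of -0.49 (exact permutation test, two-sided, p = 0.00433, adjusted over 8 pairs 0.0346). All FSH ratios, from -1.68 to -1.31, lay below all saline ratios, from -1.30 to -0.52. Both genes share stretches with an overlapping gene, Fdft1 with Ctsb and Fdps with Gm43738. The part of such shared reads in this ratio was not tested. Pmvk against Mvk had the largest difference, 0.65, with mean log2 ratios of 2.50 ± 0.21 (SD, n = 5) and 1.85 ± 0.37 (SD, n = 6), and did not pass after adjustment (exact permutation p = 0.0173, adjusted 0.0693). The other 6 pairs differed by -0.31 to 0.28 with adjusted p-values of 0.496 or more, which does not show that they responded alike. The Fdft1 to Fdps difference kept its direction but not its call without FSH liver 1, 3 or 4 (adjusted p = 0.0762 by exact permutation) or without any saline liver, where 5 against 5 livers cannot take the adjusted p of a single pair below 0.0635.

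Among the 11 livers, deviations from the group mean moved together across the enzymes. The correlation of each enzyme with the mean of the other 8 was between 0.81 (Pmvk) and 0.98 (Sqle). Without FSH liver 6 and saline liver 4 it was 0.90 for Sqle and 0.89 for Acat2, and -0.10 for Pmvk and -0.18 for Mvd. Outside the 9, the transcripts with the most similar deviations among 12724 genes were Stard4, a sterol carrier, Rdh11, a retinol dehydrogenase, the sterol enzymes Lss and Cyp51, the kinase Rps6ka3 and the small GTPase Rab6a, with r from 0.95 to 0.96. Without the same pair of livers r was 0.91 for Cyp51, 0.87 for Lss, 0.79 for Rdh11, 0.77 for Stard4, 0.72 for Rab6a and 0.59 for Rps6ka3. All points come from the same 11 libraries, and 44 genes had r above 0.9.

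The later enzymes, which turn squalene epoxide into cholesterol, were also higher. Of 10 genes, 9 were called higher, 6 of them at both thresholds, beside 6.19% and 0.887% of all genes, with a median log2 fold change of 1.16. Without FSH liver 1, 2 or 3, 8 were called. Lss, the cyclase that closes the sterol ring, was at 132 ± 46.3 CPM (SD, n = 5) in FSH livers and 42.0 ± 13.2 CPM (SD, n = 6) in saline livers (log2 fold change 1.62, adjusted p = 0.00146, limma). Sc5d and Dhcr7, which act near the end of the route, had log2 fold changes of 1.22 and 1.17, and Ebp, the sterol isomerase, of 0.52 with an adjusted p of 0.00132 in limma. The gene not called was Lbr, at 13.4 ± 1.74 CPM (SD, n = 5) against 11.2 ± 1.26 CPM (SD, n = 6), with an adjusted p of 0.169 in limma. In the promoter windows of this list CCAAT was found in 10 of 12, GGGCGG in 11 of 12, CACGTG in 3 of 12 (Dhcr7, Hsd17b7 and Sc5d) and TCACNCCAC in 0 of 12.

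Other branches draw on farnesyl diphosphate for products besides sterols. Of 11 genes for prenylation, dolichol and ubiquinone, limma called 0 and edgeR on the recovered reads called 0, beside 6.19% of all genes called higher and 4.41% called lower in limma. Whether this list differed from the 9 enzymes was not tested. At an unadjusted p under 0.05 limma gave 1, Fnta, a prenyltransferase subunit (log2 fold change 0.18, adjusted p = 0.197). The median log2 fold change was 0.01. Coq2, Rabggta and Pdss1, the next by p, had log2 fold changes of 0.17, 0.16 and 0.21, and the widest 95% interval of the 11, that of Fntb, ran from -0.41 to 0.52.

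Genes that supply the route with acetyl-CoA and NADPH were called higher in 6 of 6 cases, 4 of them at both thresholds, beside 6.19% and 0.887% of all genes. The count called was 4 without FSH liver 1, and 5 without FSH liver 2 or 3, without saline liver 3, 4 or 6, or with no filter on low values. Acss2, which makes acetyl-CoA from acetate, was at 764 ± 262 CPM (SD, n = 5) in FSH livers and 168 ± 69.3 CPM (SD, n = 6) in saline livers (log2 fold change 2.19, adjusted p = 0.000153, limma). Acly, which cleaves citrate, had a log2 fold change of 1.84, Me1, the malic enzyme, of 1.62, and Slc25a1, the citrate carrier, of 0.70.

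**Figure D4:**
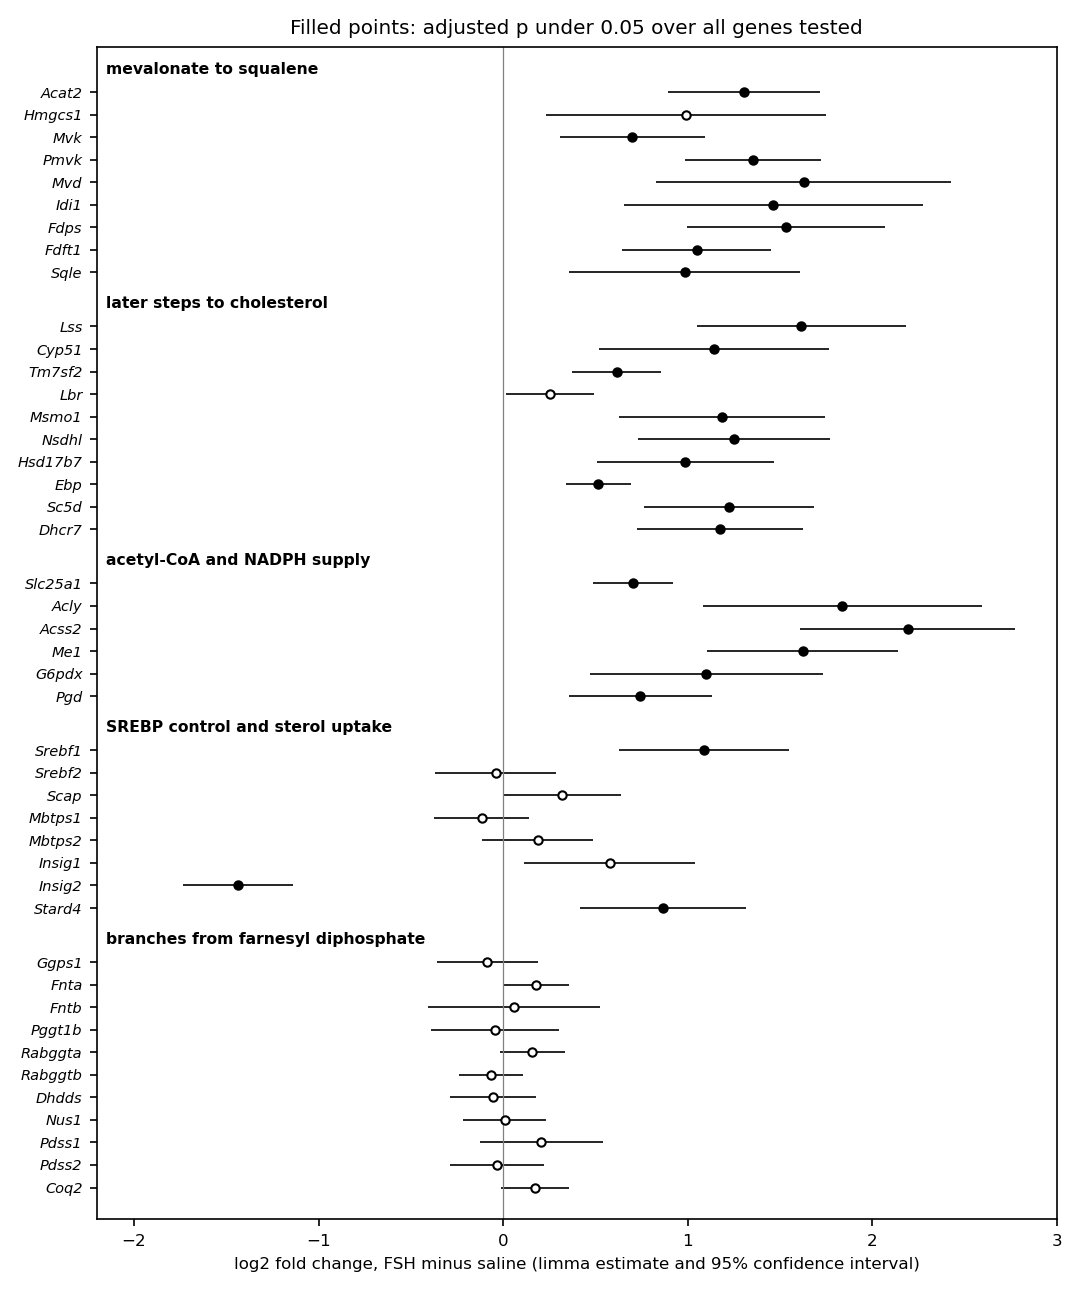
log2 fold change, FSH minus saline (horizontal axis), for the 9 enzymes and 4 lists of related genes (vertical axis); points are limma estimates, bars 95% confidence intervals, and filled points have an adjusted p under 0.05. The mevalonate to squalene genes, the later steps and the supply genes lie to the right of 0, and the 11 branch genes lie between -0.08 and 0.21.

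Transcripts of the sterol sensing machinery moved unevenly. Of 8 genes, 2 were called higher and 1 lower, beside 6.19% and 4.41% of all genes. Srebf2, which encodes SREBP-2, was at 53.6, 64.4, 40.2, 47.2 and 50.2 CPM in FSH livers 1, 2, 3, 4 and 6. In saline livers Srebf2 ranged from 36.6 to 66.4 CPM with a median of 51.5 CPM. All FSH livers were within the saline range, and the log2 fold change was -0.04 (95% interval -0.37 to 0.29, adjusted p = 0.91, limma). Srebf1, which encodes SREBP-1, an activator better known for fatty acid synthesis, was at 479, 448, 471, 419 and 413 CPM in FSH livers 1, 2, 3, 4 and 6. In saline livers Srebf1 ranged from 121 to 345 CPM with a median of 213 CPM. Groups did not overlap, FSH liver 6 lay with its group, and the log2 fold change was 1.09 (SE 0.22, adjusted p = 0.00474, limma).

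Insig2, which holds the SREBP complex in the endoplasmic reticulum, was at 107, 174, 120, 114 and 106 CPM in FSH livers 1, 2, 3, 4 and 6. In saline livers Insig2 ranged from 278 to 405 CPM with a median of 317 CPM. Every FSH liver was below every saline liver, liver 6 included, with a log2 fold change of -1.44 (SE 0.14, adjusted p = 2.07e-05, limma). Insig1, its relative, was at 540 ± 149 CPM (SD, n = 5) in FSH livers and 359 ± 83.4 CPM (SD, n = 6) in saline livers and was not called (log2 fold change 0.58, adjusted p = 0.109, limma). Stard4 had a log2 fold change of 0.87 with an adjusted p of 0.0165 in limma. Srebf2 was named after its values were seen.

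**Figure D5:**
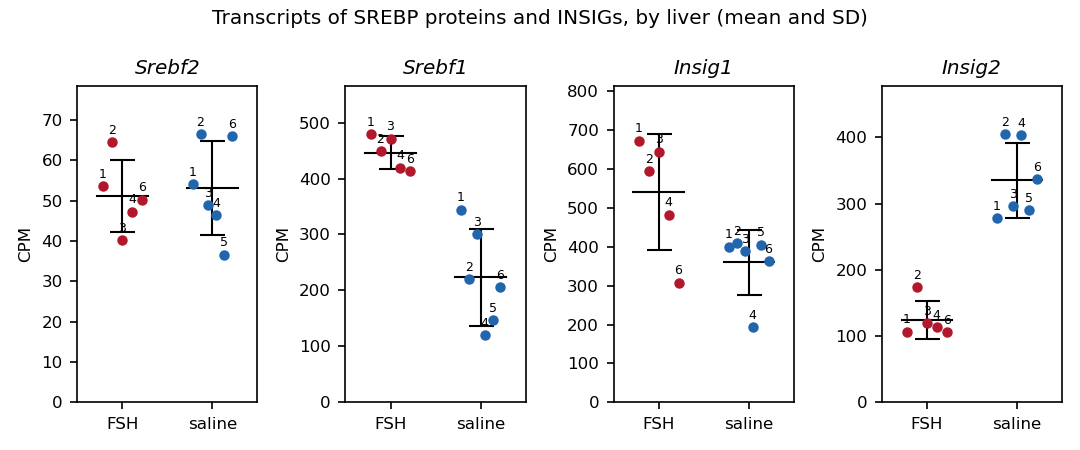
Srebf2, Srebf1, Insig1 and Insig2 in every liver (vertical axes, CPM, from 0); numbered points are livers, lines are group means and bars are ± 1 SD (FSH n = 5, saline n = 6). Srebf2 groups share a range, while Srebf1 is higher and Insig2 lower in every FSH liver.

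Genes of the circadian clock also separated the groups. Of 15 clock genes tested, 6 were called higher and 5 lower, beside 6.19% and 4.41% of all genes. Groups lay apart without overlap for 5 that were higher and 5 that were lower, beside 3.95% and 2.72% of all genes. Dbp, a clock output factor, was at 121, 116, 56.5, 79.6 and 42.6 CPM in FSH livers 1, 2, 3, 4 and 6 and between 3.40 and 4.95 CPM in saline livers. Arntl, a core activator, was at 3.33 ± 1.31 CPM (SD, n = 5) in FSH livers and 18.1 ± 3.43 CPM (SD, n = 6) in saline livers, and Per3, a clock repressor, at 29.7 ± 9.27 and 4.32 ± 1.00 CPM. Npas2, a partner of Arntl, had reads in a single FSH liver (0.1005 CPM), where 3 reads would be 0.151 CPM, and was at 4.64 to 7.14 CPM in saline livers. These 4 have the smallest p of the list, and all are among those without overlap. The part of the clock genes in the values of the 9 enzymes was not tested.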

How the data were processed

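Liver RNA was sequenced from 5 FSH-treated and 6 saline-treated OVX mice on a high-fat diet. Per the labels, whole liver was digested with papain and libraries were built with the NEBNext Ultra kit, which does not mark strand. The submitters' processing notes name mm10, FastQC 0.11.2, Trim Galore 0.3.3, cutadapt, STAR and RSEM; annotation and counting settings are not given in the sources used here. The deposited CPM values, made by the authors from reads per gene, sum to 1000000 in each library and are not corrected for length. Values were whole multiples of 1 read (100% within 0.05 reads), so reads were recovered: 10801891 to 19909327 per library.

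Groups followed the labels. The 9 members and the lists were chosen with earlier results of these data known, and some genes of the lists are not reported here. Of 36788 identifiers, 35555 had a symbol. limma 3.58.1 (R 4.3.3) with a trended prior was run on log2(CPM + 0.5) over the 12733 genes whose mean reached 0.5 CPM, with Benjamini-Hochberg adjustment; calls used an adjusted p under 0.05, and a log2 fold change beyond 1 where stated. Within-liver ratios of each of the 9 genes to the one listed before it were tested by exact permutation, two-sided, adjusted over 8 pairs. Singly, each enzyme's exact permutation p lay between 0.00216, the smallest that 462 splits can give, and 0.0649. The fitting was also run on simulated reads in which genes varied independently and by the same amount. The enzymes here moved together across livers, so that run does not test their calls. edgeR 4.0.16 on the recovered reads, chosen after seeing the data, called 749 genes higher and 686 lower (limma: 788 and 562).

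Named genes were the 9 enzymes, up to 4 genes per list with the smallest p, the 6 transcripts most like the enzymes, and near-identical copies. Lbr, Srebf2, Fntb, Ctsb, Tcp1, Fgb, Krt7 and the promoter gene Hsd17b7 were named outside this rule, after their values were seen. Positions and shared 100-base stretches came from GENCODE annotation of GRCm38. No 2 libraries of the same group agreed within sampling noise. Library number limits the precision; the 95% intervals are from limma and rest on the spread between livers, and limits of 3 reads cover counting error only.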

Additional observations from a re-analysis of the deposited data

Results flagged for a closer look

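Among 81 sets of values (1 gene in 1 group) for the genes whose levels or fold changes are given here, 4 had a liver far from the others of its group by Dixon's criterion, which chance meets in about 1 in 20 groups. Insig1 was at 192 CPM in saline liver 4, the lowest, with the other saline livers between 363 and 408 CPM. Insig2 was at 174 CPM in FSH liver 2, the highest of its group. Idi2 in FSH liver 3 (0.0566 CPM) and Npas2 in FSH liver 1 (0.1005 CPM) were the only FSH livers with reads of these genes. None of the 9 enzymes met the criterion in either group.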

How the results depend on the processing

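All 207 fold changes of the 9 enzymes over 23 alternatives (pseudocount, filter, scaling, weights, voom, edgeR, replicate block, livers left out) were positive. The number of enzymes called at an adjusted p under 0.05, 8 as reported, was 5 with the replicate block, 6 with no filter on low values (limma adjusted p 0.0511 for Idi1 and 0.0867 for Sqle), 7 with no trended prior (0.0663 for Sqle) and 5 to 9 with 1 liver left out; Sqle lost its call in 11 of 23 alternatives. At both thresholds the number called was 4 to 8 against 6 as reported. Whether the replicate numbers pair the samples cannot be settled from so few livers. Deviations of same-numbered livers correlated at 0.07, 0.36, 0.02, 0.14 and -0.07, and not every liver correlated best with its own number. Livers of unlike number correlated at -0.23 to 0.24. With the block, Mvk, Idi1 and Sqle had adjusted p-values of 0.0631, 0.0560 and 0.0575 in limma. Genes called in all fell from 1350 to 803 without FSH liver 1. Of the 8 ratios of listed neighbours, 1 passed as reported, 2 with a pseudocount of 1 CPM and 0 to 2 with 1 liver left out. Ratios near 0 turned sign when 1 liver was left out, Fdps to Idi1 over a range of -0.0888 to 0.243, Sqle to Fdft1 of -0.209 to 0.00837 and Idi1 to Mvd of -0.358 to 0.0272. A sign-flip test of the ratios over 5 same-numbered pairs cannot go below 0.0625. The causes were not tested. At these depths Mvd and Mvk have the fewest reads of the 9.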
